A study of Mus musculus with 12 samples.

Results

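The transcription factors ATF4 and CHOP and the stress effector genes that act with them were followed through 10 genes: Atf4, Ddit3, Atf3, Atf5, Cebpb, Trib3, Chac1, Sesn2, Ddit4 and Ppp1r15a. All 10 were found by name among the 35321 genes of the deposited gene table, and each had reads in all 12 libraries. They were selected on how they moved between 0, 1 and 2 h in earlier results of these same libraries, so differences between the times are given below as a description, with standard errors and no p-value. RNA came from C17.2 cells, an established line of mouse multipotent neural stem cells whose strain is labelled CD1 x C57BL/6. The cells were grown in DMEM/F12 with serum and were then moved to Knockout DMEM with GlutaMAX and the N2 supplement, which starts neural differentiation. Isolated mitochondria and nuclei were each sampled before that change (0 h) and 1 h and 2 h after it, which gave 6 groups of 2 libraries. All groups share the same line and no group stayed in the serum medium for 1 or 2 h, so differentiation, the loss of serum and the handling of the cells cannot be told apart.

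Cells that lack amino acids, carry misfolded protein in the endoplasmic reticulum, lack haem or sense viral RNA phosphorylate the translation factor eIF2. Most translation then slows, while the mRNA of ATF4 is translated better because of short reading frames ahead of its coding sequence. ATF4 is a bZIP (basic leucine zipper) transcription factor that turns on genes for amino acid supply and further stress factors, among them CHOP, the product of Ddit3. The response also holds its own brakes, since GADD34, the product of Ppp1r15a, brings a phosphatase to eIF2, and TRB3, the product of Trib3, binds and restrains ATF4 and CHOP. The amount of Atf4 mRNA is thus only part of the control of ATF4, and protein was not measured here.

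ATF4 and CHOP bind DNA with C/EBP proteins at the C/EBP-ATF response element, which was searched as TGATGNAA. Factors of the CREB and ATF family bind the cyclic AMP response element, searched as TGACGTCA. Both strands of 11 RefSeq promoters of the 10 genes (GRCm38.p6, 250 bases before to 50 after the gene start; Atf5 has 2) were read, and the motifs share no match in them. TGATGNAA lay in a promoter of 3 of the 10 genes, against 4.51% of all genes in the RefSeq table, and TGACGTCA lay in that of 1, against 2.03%. A match shows only that the letters are there. The 4 stretches that hold a match are given so that the letters can be seen, with the match in capitals, read 5′ to 3′ on the strand of the gene, where TGATGNAA appears as its reverse complement TTNCATCA.
Atf3: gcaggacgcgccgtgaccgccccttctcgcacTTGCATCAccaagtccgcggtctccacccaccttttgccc
Chac1: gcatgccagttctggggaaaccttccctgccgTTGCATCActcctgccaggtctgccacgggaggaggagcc
Trib3: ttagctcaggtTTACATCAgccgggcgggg
Ppp1r15a: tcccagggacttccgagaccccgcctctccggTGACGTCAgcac
The stretch of Atf3 is chr1:191183404-191183475 on the minus strand, and that of Chac1 is chr2:119351017-119351088 on the plus strand. Those of Trib3 (chr2:152344028-152344057) and Ppp1r15a (chr7:45526269-45526312) are on the minus strand. Counted from the gene start, the first base of the match lay at -110 in Atf3, -193 in Chac1, +14 in Trib3 and -12 in Ppp1r15a. No match to either motif lay in these windows of the other 6 genes. For Atf3 the gene start was the RefSeq start at 191183333, which lies inside the entry of the gene table. That entry begins at 191218039 on the minus strand, and no window there was read.

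The gene table gives each gene in log2 RPM, its reads scaled to the total of the library. Library totals were 30.3 M to 42.3 M reads, of which 13.9% to 21.9% lay inside the listed genes. This share was 18.9% to 21.9% in the libraries of 0 h and 13.9% to 16.1% in those of 1 and 2 h. Each member was covered by 27 (Cebpb) to 3662 (Atf4) reads in a library. On the deposited scale the median of all 21078 genes tested moved with time, by -0.22 and -0.28 in mitochondria at 1 and 2 h and by -0.64 and -0.51 in nuclei. Differences between groups are for this reason those after quantile normalization, with the standard error of the limma model after the ± sign, and levels of single libraries are as deposited. In 4 libraries (replicate 2 of mitochondria 0 h and replicate 1 of mitochondria 1 h, nuclei 0 h and nuclei 1 h) the mean log2 RPM of Rps27, Rpl17, Rpl23a and Gapdh was -0.44 to 1.26, against 5.87 to 6.47 in the other 8. Among 10 neural progenitor markers 7 had a median of at least 10 reads, Nes and Vim among them, while Pax6 and Prom1 had 0 to 3 reads in any library. The summed level of the 10 was 661 to 712 RPM at 0 h, 462 to 586 RPM at 1 h and 456 to 525 RPM at 2 h. The summed level of 5 mesenchymal markers was 2097 to 2978 RPM, 1406 to 1575 RPM and 1413 to 1862 RPM at these times. Both sums are on the deposited scale, on which the median of all genes also fell after 0 h, and they were not corrected for that shift. Of 5 oligodendrocyte markers Sox10 had 721 to 1642 reads, and the mesenchymal marker Col1a1 had 39421 to 88170. No read fell in the neuron markers Dcx and Stmn2, the astrocyte marker Aqp4 or the microglia marker Ptprc, while the neuron markers Tubb3 and Map2 had 144 to 351 and 178 to 491 reads, the microglia marker Csf1r 18 to 78 and the astrocyte marker S100b 17 to 40. The part of these other genes in the values below was not tested, and in bulk RNA fewer cells of a type and less RNA per cell cannot be told apart.

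Atf4, at the head of the pathway, lies on chromosome 15 (80255184 to 80257541, GRCm38, plus strand). In mitochondria the libraries stood at 5.42 and 5.32 log2 RPM at 0 h, at 5.91 and 5.90 at 1 h and at 6.54 and 6.49 at 2 h. In nuclei they stood at 5.76 and 5.78, at 5.86 and 5.88, and at 6.57 and 6.49. The times did not overlap within either fraction, and the mitochondrial libraries at 0 h were the lowest of the 12. As mean RPM, Atf4 went from 41.4 ± 1.95 (SD, n = 2) to 91.6 ± 2.06 in mitochondria and from 54.6 ± 0.41 to 92.4 ± 3.58 in nuclei over the 2 h. After normalization the mitochondrial libraries differed from 0 h by 0.88 ± 0.06 and then 1.46 ± 0.06, and the nuclear libraries by 0.75 ± 0.06 and then 1.26 ± 0.06. The step between 0 and 1 h in nuclei depends on the scale, since it was 0.10 on the deposited values.

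Ddit3, which codes for CHOP, a factor linked to cell death under lasting stress, lies on chromosome 10 (127290774 to 127296288, plus strand). Mitochondrial libraries held 97 and 107 of its reads before the medium change, 215 and 212 after 1 h and 553 and 567 after 2 h. In nuclei it had 196 and 209, 186 and 196, and 623 and 722 reads. On the log2 RPM scale these are 1.68 and 1.64, 2.75 and 2.42, and 3.95 and 3.95 in mitochondria, and 2.42 and 2.31, 2.51 and 2.57, and 4.13 and 4.15 in nuclei. The 2 h libraries stood above all others in both fractions, and the 0 h libraries of mitochondria stood below those of nuclei. After normalization mitochondria differed from 0 h by 1.21 ± 0.12 after 1 h and 2.58 ± 0.12 after 2 h, and nuclei by 0.91 ± 0.12 and 2.42 ± 0.12. The first of the nuclear values was 0.18 on the deposited scale.

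The table holds a second, shorter Ddit3 entry (127290829 to 127293753) inside the first, which GENCODE M21 lists as a gene of its own with the same symbol. Its reads numbered 9 and 13, 26 and 34, and 92 and 97 in mitochondria, and 24 and 21, 27 and 25, and 98 and 131 in nuclei. In order of time, this is 10.7% ± 2.03 (SD, n = 2), 14.1% ± 2.79 and 16.9% ± 0.33 of the reads of the full entry in mitochondria, and 11.1% ± 1.55, 13.6% ± 1.24 and 16.9% ± 1.71 in nuclei. The 2 h libraries had a higher share than the 0 h libraries of their fraction. This was not tested, and whether both entries share reads is not stated in the sources used here.

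Atf3, an early bZIP factor that ATF4 and other stress pathways induce, lies on chromosome 1 (191170296 to 191218039, minus strand). In order of time, mitochondrial libraries stood at -0.11 and 0.75, 1.99 and 1.78, and 3.33 and 3.53 log2 RPM. Those of nuclei stood at 0.26 and 0.55, 2.14 and 1.82, and 3.37 and 3.55. No 2 times overlapped in either fraction, although the mitochondrial 0 h libraries, with 28 and 58 reads, differed by more than any other pair of the gene. The normalized differences were the largest of the 10 genes at 2 h, at 3.34 ± 0.26 (10.1-fold) in mitochondria and 3.75 ± 0.26 (13.5-fold) in nuclei. At 1 h they were 1.80 ± 0.26 and 2.37 ± 0.26.

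Atf5, whose mRNA is controlled in translation much as that of Atf4 is, lies on chromosome 7 (44812256 to 44816658, minus strand) and behaved differently from the other 9. Its mitochondrial libraries stood at 4.42 and 4.57, 4.29 and 4.30, and 3.99 and 4.23 log2 RPM. In nuclei they stood at 4.47 and 4.38, 3.79 and 3.91, and 3.96 and 4.11. On this scale every library at 1 or 2 h was below every 0 h library, with differences of -0.20 and -0.38 in mitochondria and -0.57 and -0.39 in nuclei. After normalization the differences were 0.13 ± 0.13 and 0.02 ± 0.13 in mitochondria and 0.11 ± 0.13 and 0.20 ± 0.13 in nuclei, so that the direction turns with the scaling. Atf5 overlaps Nup62 on the other strand by 571 bases. Nup62 had 556 to 963 reads in a library, of the same order as Atf5, and without strand information their reads cannot be told apart there.

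Cebpb, the C/EBP partner of ATF4 and CHOP, lies on chromosome 2 (167688915 to 167690418, plus strand) and was the least covered of the 10. In order of time it had 27 and 56, 54 and 67, and 111 and 85 reads in mitochondria, and 80 and 112, 57 and 69, and 93 and 155 in nuclei. In log2 RPM these are -0.16 and 0.70, 0.76 and 0.76, and 1.63 and 1.21, and in nuclei 1.13 and 1.41, 0.81 and 1.07, and 1.39 and 1.93. The times were apart in mitochondria on this scale, by little between 0 and 1 h, while in nuclei 0 and 2 h overlapped and 1 h was lowest. The normalized difference at 2 h was 1.41 ± 0.30 in mitochondria, and 0.94 without replicate 1 of mitochondria 0 h. It was 0.95 ± 0.30 in nuclei, and 0.63 without replicate 2 of nuclei 2 h. At 1 h it was 0.76 ± 0.30 in mitochondria, with 0.29 and 1.23 without replicate 1 and replicate 2 of 0 h, and 0.39 ± 0.30 in nuclei, where the deposited value was -0.33. Tmem189 overlaps 908 bases of the gene on the other strand, with 152 to 299 reads of its own.

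**Figure D1:**
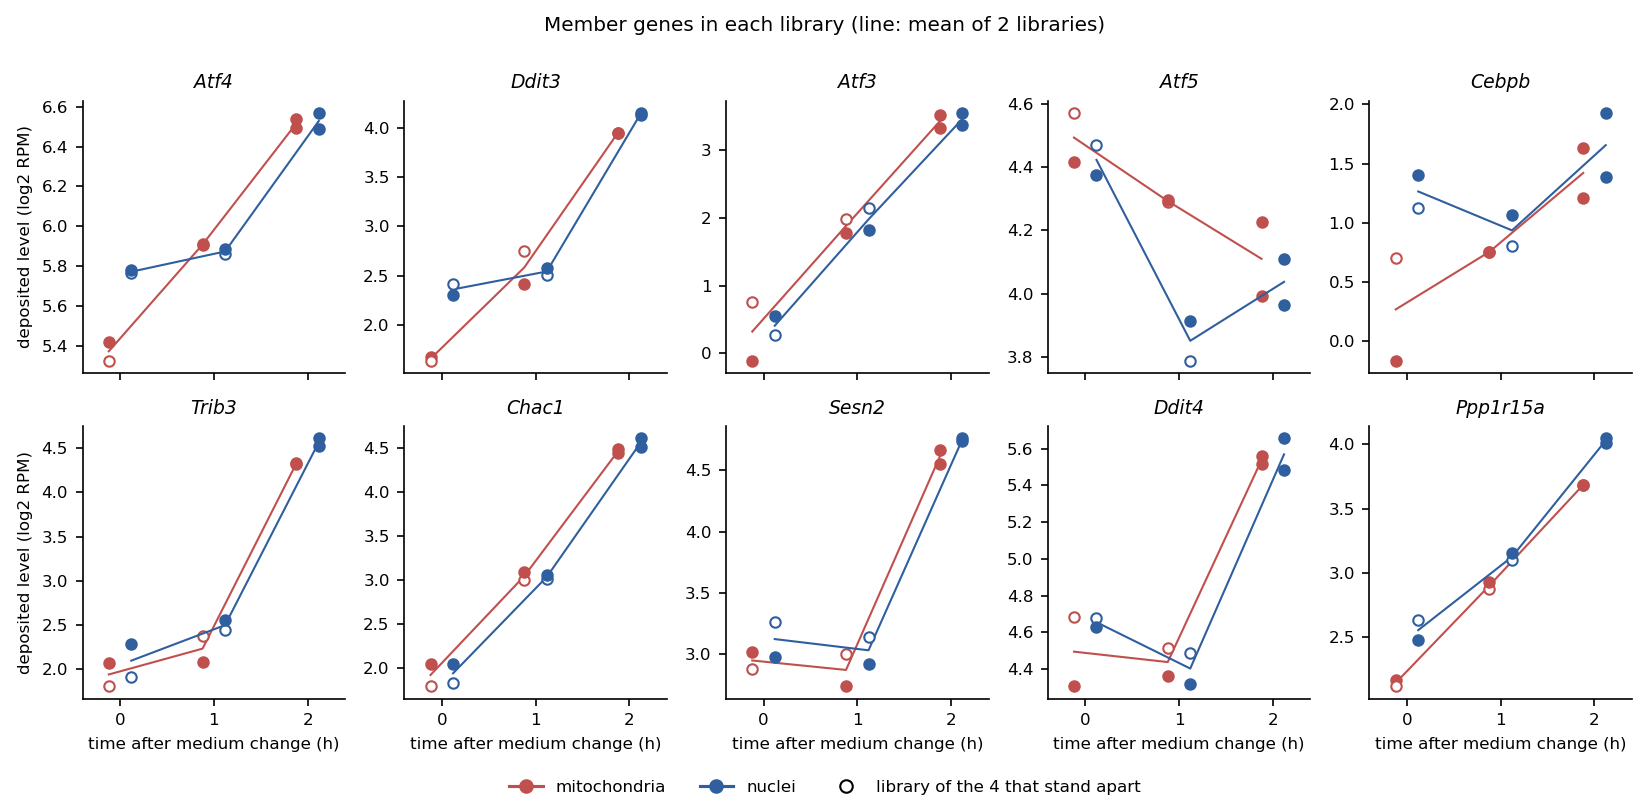
Deposited level of each of the 10 genes in log2 RPM (vertical axis, its own range per gene) against the time after the medium change in h, for mitochondria (red) and nuclei (blue). Each point is a library, open points are the 4 libraries with low Rps27, Rpl17, Rpl23a and Gapdh, and lines join the means of 2 libraries. The 2 h libraries lie above those of 0 and 1 h in both fractions for every gene but Atf5 and, in nuclei, Cebpb.

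Trib3, the gene of the pseudokinase TRB3, lies on chromosome 2 (152337422 to 152344032, minus strand). At 0 h its libraries stood at 2.07 and 1.80 log2 RPM in mitochondria and 1.90 and 2.28 in nuclei. At 1 h they stood at 2.38 and 2.08 and at 2.44 and 2.55, and at 2 h at 4.32 and 4.34 and at 4.61 and 4.53. The 0 and 1 h libraries were close together and those of 2 h lay far above both. Between 1 and 2 h the normalized difference was 2.10 ± 0.14 in mitochondria and 2.00 ± 0.14 in nuclei, the largest of the 10 genes over that hour in each fraction. Between 0 and 1 h it was 0.60 ± 0.14 and 1.12 ± 0.14.

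Chac1, an enzyme that breaks down glutathione and a target of ATF4 and ATF3, lies on chromosome 2 (119351229 to 119354381, plus strand). Its mitochondrial libraries stood at 2.05 and 1.79, 3.0 and 3.09, and 4.48 and 4.44 log2 RPM in order of time. The nuclear libraries stood at 1.83 and 2.05, 3.01 and 3.06, and 4.60 and 4.50. No 2 times overlapped. The normalized difference was 1.40 ± 0.10 over the first hour and 1.43 ± 0.10 over the next in mitochondria, and 1.82 ± 0.10 and 1.43 ± 0.10 in nuclei. Over 2 h this came to 2.84 ± 0.10 (7.14-fold) and 3.26 ± 0.10 (9.57-fold).

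Sesn2 (chromosome 4, 132492032 to 132510501, minus strand) and Ddit4 (chromosome 10, 59949669 to 59951834, minus strand) both code for inhibitors of the growth kinase mTORC1. In order of time, Sesn2 stood at 3.01 and 2.88, 3.0 and 2.74, and 4.67 and 4.55 log2 RPM in mitochondria and at 3.26 and 2.98, 3.14 and 2.92, and 4.74 and 4.76 in nuclei. Ddit4 stood at 4.31 and 4.68, 4.52 and 4.36, and 5.56 and 5.51 in mitochondria, and at 4.68 and 4.63, 4.49 and 4.32, and 5.66 and 5.48 in nuclei. In both genes the 0 and 1 h libraries overlapped on the deposited scale, except for Ddit4 in nuclei, and the 2 h libraries lay above them all. After normalization Sesn2 differed from 0 h by 0.25 ± 0.12 and then 2.00 ± 0.12 in mitochondria and by 0.63 ± 0.12 and then 2.26 ± 0.12 in nuclei. Ddit4 differed by 0.28 ± 0.13 and then 1.37 ± 0.13, and by 0.42 ± 0.13 and then 1.5 ± 0.13. At 1 h the deposited values of both genes were below 0, at -0.08 and -0.09 for Sesn2 and at -0.06 and -0.25 for Ddit4 in mitochondria and nuclei.

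Ppp1r15a, the gene of the phosphatase subunit GADD34, lies on chromosome 7 (45522916 to 45526268, minus strand). In mitochondria it stood at 2.17 and 2.12, 2.87 and 2.93, and 3.68 and 3.69 log2 RPM in order of time. In nuclei it stood at 2.63 and 2.47, 3.10 and 3.15, and 4.01 and 4.05. The times were apart in both fractions, and at each time both nuclear libraries were above both mitochondrial ones. The normalized difference was 1.04 ± 0.09 and 1.86 ± 0.09 at 1 and 2 h in mitochondria, and 1.30 ± 0.09 and 2.11 ± 0.09 in nuclei. Its partner Ppp1r15b, which holds the same phosphatase at eIF2 without stress, moved by 0.08 in mitochondria and 0.11 in nuclei at 2 h and passed the test in neither. Tulp2 overlaps Ppp1r15a on the other strand but had only 0 to 8 reads, and Gm12981, inside Sesn2, had 4 to 34.

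**Figure D2:**
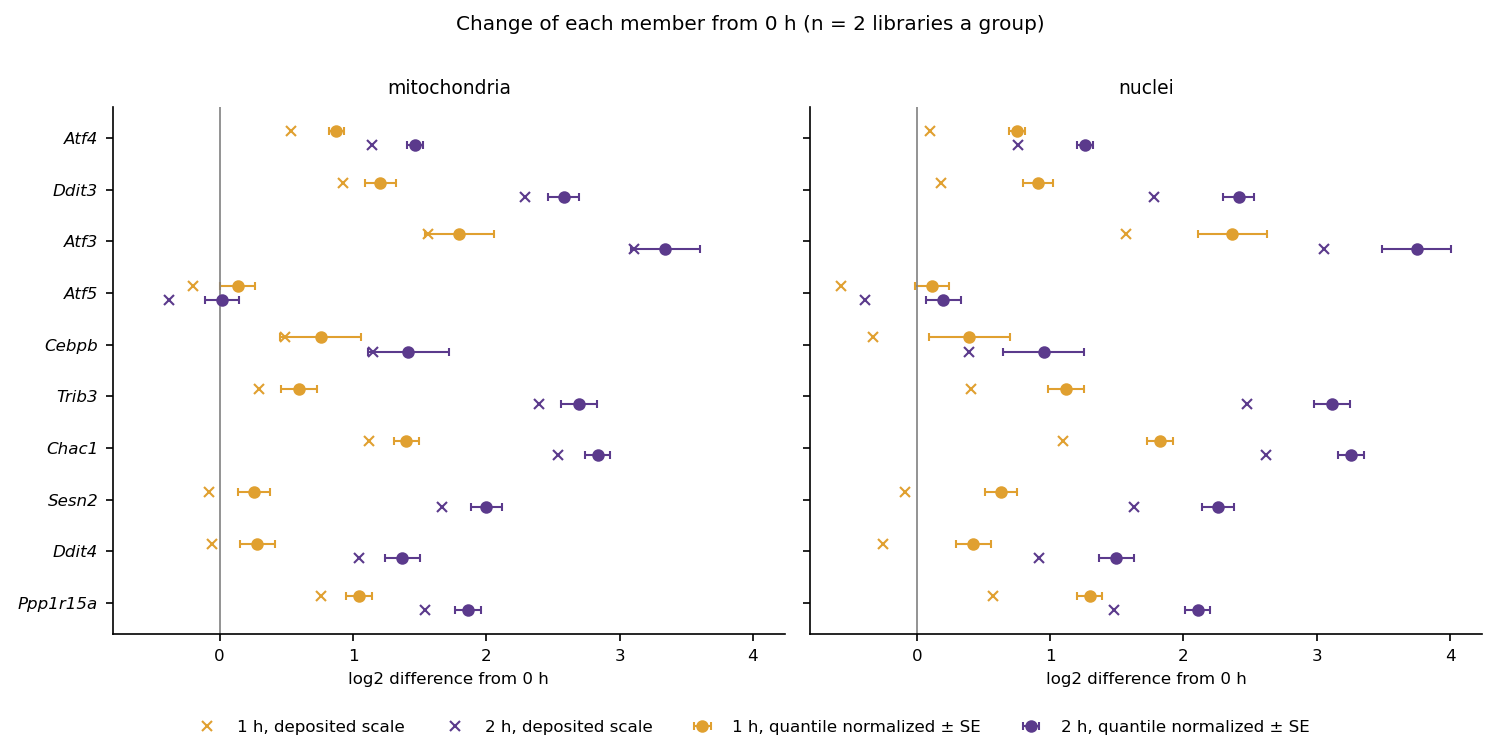
Log2 difference from 0 h (horizontal axis) of each of the 10 genes at 1 h (yellow) and 2 h (purple) in mitochondria and nuclei. Dots with bars are values after quantile normalization ± SE of the limma model (n = 2 libraries a group) and crosses are the deposited scale, which lies lower for every gene, with Atf5 below 0 on it at both times in both fractions.

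The share of the 2 h log2 difference that was present at 1 h, after normalization, is given for the 9 genes other than Atf5, whose 2 h differences are too small beside their standard errors to divide by. In mitochondria this share was 59.8% for Atf4, 56.1% for Ppp1r15a, 53.8% for Atf3, 53.6% for Cebpb, 49.4% for Chac1 and 46.8% for Ddit3. It was 22.1% for Trib3, 20.7% for Ddit4 and 12.7% for Sesn2. In nuclei Atf3 (63.1%), Ppp1r15a (61.5%), Atf4 (59.6%) and Chac1 (56.0%) were the highest, and Trib3 (36.0%), Ddit4 (28.3%) and Sesn2 (27.8%) the lowest, with Cebpb at 41.2% and Ddit3 at 37.6%. After normalization Trib3, Ddit4 and Sesn2 thus had the 3 lowest shares in both fractions. In nuclei Ddit3 was close to Trib3, and no error of these shares was computed. On the deposited scale Ddit4, Sesn2 and, in nuclei, Cebpb were not above 0 h at 1 h at all. The nuclear order also turned with the scale. Deposited differences at 1 and 2 h in nuclei were 0.10 and 0.76 for Atf4, 0.18 and 1.78 for Ddit3, and 0.40 and 2.48 for Trib3. Trib3 was thus not among the 3 lowest shares there, and lay above Atf4 and Ddit3.

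The same genes passed the threshold of the limma test (Benjamini-Hochberg adjusted p under 0.05 over 21078 genes) in these numbers, from which nothing is read because these contrasts chose the genes. In mitochondria 6 of 10 were called higher at 1 h, where 2.24% of all genes tested were, and 9 at 2 h, where 4.65% were. Between 1 and 2 h 8 were called higher, against 1.61% of all genes. In nuclei the counts were 7 at 1 h, 8 at 2 h and 8 between 1 and 2 h, against 1.01%, 4.64% and 1.14% of all genes. None was called lower in any of these contrasts, while 3.74%, 6.78% and 2.12% of all genes were called lower in mitochondria and 0.807%, 5.57% and 1.27% in nuclei. None was lower at an unadjusted p under 0.05 either, where 3073 to 5112 of the 21078 genes passed in either direction. As deposited, Atf5 was called lower in mitochondria at 2 h and in nuclei at 1 and 2 h, and so were 25.5%, 48.0% and 38.1% of all genes. On that scale 4 members were called higher in nuclei at 1 h, against 0.508% of all genes. Some calls were lost when 1 library was left out, which leaves 1 library in its group, in some cases at a larger difference than with all libraries. Trib3 in mitochondria at 1 h was not called without replicate 1 or 2 of 0 h or replicate 1 of 1 h, at 0.65, 0.53 and 0.46, and Cebpb in mitochondria at 2 h was not without replicate 1 of 0 h or replicate 1 of 2 h, at 0.94 and 1.23. Sesn2 in nuclei at 1 h was not called without replicate 2 of 0 h or replicate 1 of 1 h, at 0.48 and 0.53. Between 1 and 2 h Atf3 in mitochondria was not called without replicate 2 of 1 h or replicate 2 of 2 h, at 1.45 and 1.42, and in nuclei without replicate 2 of 1 h or either replicate of 2 h, at 1.24, 1.54 and 1.24. Without the variance trend and robust moderation it was called in neither fraction.

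The split between libraries touches the 0 and 1 h groups, each of which holds 1 library of either kind. With a term for the split, or in the 8 other libraries alone, the 2 h difference of Atf3 was 3.48 and 3.82 in mitochondria and 3.88 and 3.58 in nuclei. That of Trib3 was 2.65 and 2.63 in mitochondria and 3.07 and 2.93 in nuclei, and that of Chac1 was 2.77 and 2.78, and 3.20 and 3.15. The 2 h differences of these genes were thus of the same size without the 4 libraries. With so few libraries the limma test called 6 of the 10 genes higher at 2 h in each fraction, where 0.148% and 0.0642% of all genes were, and none at 1 h, where 0.00494% and 0% were. Atf3 was among those not called.

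A comparison that did not choose the genes is that of mitochondria with nuclei over the 3 times. Ppp1r15a, Atf4 and Ddit3 were lower in mitochondria, by 0.30 ± 0.05, 0.25 ± 0.03 and 0.25 ± 0.07 on the log2 scale (limma, adjusted p = 0.0052, 0.00075 and 0.035). These are 3 of 10 genes, where 5.19% of all genes were called lower in mitochondria, and none of the 10 was called higher, where 4.44% of all genes were. At an unadjusted p under 0.05 in limma 0 were higher and 5 lower, where 4945 of 21078 genes passed in either direction. The calls depend on the scaling. With median centring, under which the median of all genes lies at 0.11 and 20.1% of all genes were called higher and 4.78% lower, Ppp1r15a stood at -0.14 and Ddit3 at -0.10 and neither passed, while Atf4 turned to 0.06. On the deposited scale all 3 passed, at -0.33, -0.13 and -0.28, where 8.32% of all genes were called lower. The call of Ddit3 was lost without any 1 library other than replicate 1 of mitochondria 1 h or replicate 1 of nuclei 1 h, at adjusted p values of 0.054 to 0.098, and in the 8 libraries alone all 3 calls were lost at values of -0.30, -0.28 and -0.31, where 0.118% of all genes were called lower.

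At 0 h, 1 h and 2 h in turn, Atf4 was lower in mitochondria by 0.36, 0.24 and 0.16, Ddit3 by 0.41, 0.11 and 0.24 and Ppp1r15a by 0.14, 0.39 and 0.38. The other 7 genes did not pass. Trib3 stood at -0.20 ± 0.08 (95% interval -0.37 to -0.03, adjusted p = 0.15) and Sesn2 at -0.16 ± 0.07 (-0.31 to -0.01, adjusted p = 0.18), both at an unadjusted p under 0.05 in limma. Chac1 stood at -0.02 ± 0.06, with an interval of -0.14 to 0.10, and Atf3 at 0.03 ± 0.15, with one of -0.30 to 0.36. For Cebpb the interval was the widest, from -0.72 to 0.05 around -0.34. Atf5 stood at 0.15 ± 0.07 and passed as higher in mitochondria on the deposited scale, at 0.20, where 5.16% of all genes did, and with median centring, at 0.38. Mitochondrially encoded RNA made up 2.28% to 4.41% of the listed transcript signal in mitochondrial libraries and 1.93% to 3.61% in nuclear ones. These ranges overlap only when the times are pooled. Before the medium change mitochondrial libraries held 3.73% to 4.41%, above the 3.45% to 3.61% of nuclei. The 1 h mitochondrial pair held 2.28% to 2.46%, above 1.99% in nuclei 1 h replicate 2. For the 2 h libraries it was 2.52% to 2.72%, above 1.93% to 2.19%. The 0 h libraries had the highest shares in both fractions. How far each fraction held RNA of the other was not tested here.

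Whether the time course differed between the fractions was tested as an interaction, and no gene of the 10 passed in limma. For the 1 h effect the count was 0 in each direction, where 0.323% of all genes were called larger and 0.892% smaller in mitochondria. At an unadjusted p under 0.05 in limma it was 0 larger and 3 smaller (Trib3, Chac1 and Sesn2), where 2489 of 21078 genes passed in either direction. For the 2 h effect it was again 0 and 0, where 0.00474% and 0% of all genes were called. It was 1 larger (Atf4) and 2 smaller (Trib3 and Chac1) at an unadjusted p under 0.05 in limma, where 2052 of 21078 genes passed. The values of Chac1 were -0.42 ± 0.14 (95% interval -0.72 to -0.12, adjusted p = 0.22) and -0.42 ± 0.14 (-0.72 to -0.12, adjusted p = 0.33), and on the deposited scale 0.03 and -0.08. Those of Trib3 were -0.53 ± 0.19 and -0.42 ± 0.19. Ddit3 stood at 0.30 ± 0.16 at 1 h (-0.06 to 0.65, adjusted p = 0.53) and Atf4 at 0.12 ± 0.08 (-0.05 to 0.30, adjusted p = 0.64). On the deposited scale, where the median of all genes lies at 0.33 for this contrast, these 2 genes passed as larger in mitochondria, at 0.74 and 0.43, as did 7.46% of all genes. The intervals at 1 h reach from -1.37 to 0.23 for Atf3 and from -0.57 to 1.30 for Cebpb, so a like course in both fractions is not shown.

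**Figure D3:**
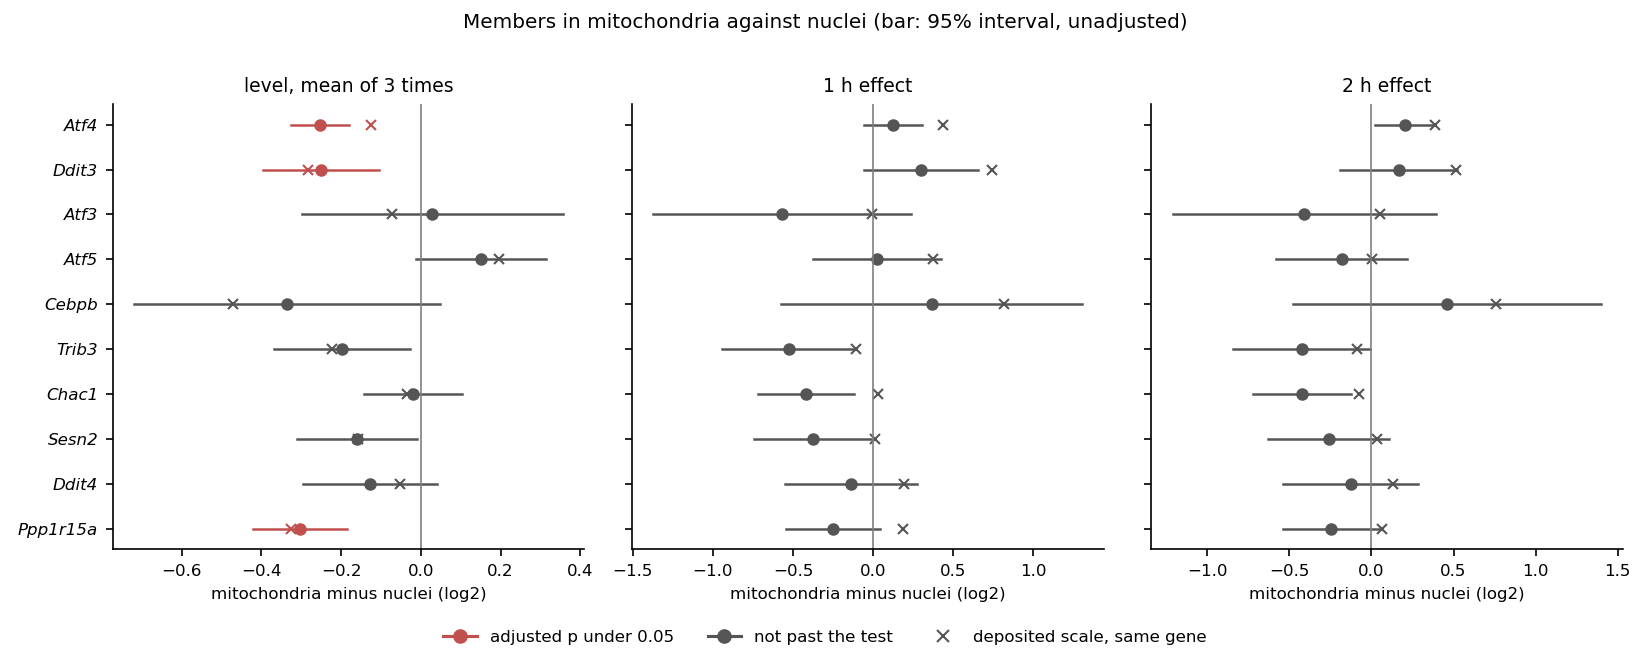
Mitochondria minus nuclei in log2 units (horizontal axis, its own range per panel) for each of the 10 genes, as the level over 3 times, the 1 h effect and the 2 h effect. Dots are values after quantile normalization with unadjusted 95% intervals, crosses the deposited scale, and red marks an adjusted p under 0.05, which Atf4, Ddit3 and Ppp1r15a reach in the first panel and no gene in the others.

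Levels can be set beside each other per length only in the transcript table, which gives FPKM, fragments scaled to transcript length and library total, for 11 libraries and holds transcripts of 9 of the 10 genes. Its transcript numbers run to 123574, but only 7153 transcripts are listed, with none of Cebpb among them. The FPKM of a gene is thus that of its listed transcripts, and signal in any others is not counted. Atf4 had the highest FPKM in every group, from 20.4 ± 0.89 (SD, n = 2) in mitochondria at 0 h to 45.0 ± 1.04 there and 46.7 ± 1.90 in nuclei at 2 h. Ddit4 came next in every group, with 9.76 and 12.2 in mitochondria at 0 h and 21.9 ± 0.48 at 2 h. In mitochondria at 0 h Atf5 (10.1 ± 0.75) overlapped with Ddit4. The means of the other 6 genes lay there between 0.43 and 2.01 FPKM, with Chac1, Sesn2, Ppp1r15a and Trib3 close together above Atf3 and Ddit3.

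At 2 h the order below Ddit4 was Ddit3 (13.0 ± 0.26), Chac1 (11.5 ± 0.25), Trib3 (8.39 ± 0.0038), Atf5 (7.68 ± 0.96), Sesn2 (6.03 ± 0.31), Ppp1r15a (5.07 ± 0.16) and Atf3 (4.64 ± 0.42) in mitochondria. Nuclei had the same order of means. Atf3 thus had the largest fold difference and, in listed transcripts, the lowest FPKM of the 9 genes at 2 h. With transcripts left out of the list, this order of genes need not be that of their full levels. Trib3 and Atf5 differed by less than the SD of Atf5. In mitochondria at 0 h the Ddit3 transcript was listed at 0.84 and 0.02 FPKM, although the gene had 97 and 107 reads, so its FPKM in that group does not follow its reads.

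Ddit4 is listed with an annotated transcript and with one assembled by the authors' pipeline. The annotated one had 8.44 and 3.24, 8.41 and 3.89, and 8.11 and 8.28 FPKM in mitochondria in order of time, and the assembled one 1.32 and 8.99, 2.70 and 5.81, and 14.2 and 13.3. In nuclei at 2 h the annotated one had 10.6 and 18.8 and the assembled one 14.2 and 3.67. The sum of both was 24.8 and 22.5 in the latter. The shares of the 2 transcripts thus differed more between replicates than the sum did, and only the sum is used above.

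**Figure D4:**
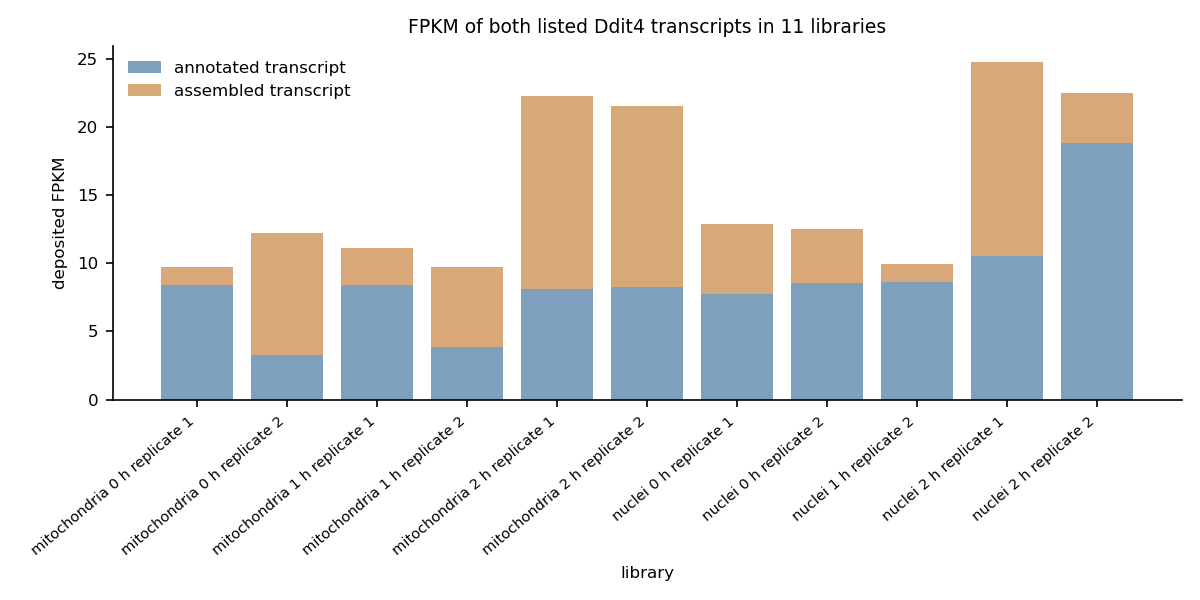
Deposited FPKM (vertical axis) of both listed transcripts of Ddit4, stacked, in each of 11 libraries. The total is 9.71 to 12.9 in the 0 and 1 h libraries and 21.6 to 24.8 in the 2 h libraries, while the part of each transcript differs between replicates of a group.

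Genes that ATF4 is known to turn on for amino acid supply were read next, from lists drawn up with earlier results known. Counts of every list after normalization are read against the shares of all genes called higher and lower. These were 4.65% and 6.78% in mitochondria and 4.64% and 5.57% in nuclei at 2 h. At 1 h they were 2.24% and 3.74%, and 1.01% and 0.807%. Between 1 and 2 h they were 1.61% and 2.12%, and 1.14% and 1.27%. Counts as deposited are read against 1.70% of all genes called higher and 25.5% called lower at 2 h in mitochondria. In nuclei these shares were 1.59% and 38.1%. Of 14 synthesis enzymes 8 rose over the 2 h in mitochondria and 6 missed the threshold, at a list median of 0.42 against 0 over all genes tested, and 11 rose in nuclei, at 0.59 against -0.0039. As deposited, only 2 rose and 2 fell in mitochondria, and 2 rose and 1 fell in nuclei. Without replicate 1 of mitochondria 0 h the 8 became 5. Mthfd2, an enzyme of the mitochondrial folate cycle, rose by 0.87 ± 0.07 and 0.86 ± 0.07 in mitochondria and nuclei, and Gpt2, the mitochondrial alanine aminotransferase, by 0.85 ± 0.10 and 0.96 ± 0.10. Psph, the last enzyme of serine synthesis, rose by 0.54 ± 0.10 and 0.67 ± 0.10, and Cth, which makes cysteine, by 0.65 ± 0.13 and 0.57 ± 0.13. At 1 h 1 of the 14 rose in mitochondria and none in nuclei, where 12 fell on the deposited scale, on which 48.0% of all genes did. The 1 call at 1 h was lost without replicate 2 of mitochondria 0 h or replicate 1 of mitochondria 1 h, and 2 were called without either replicate of nuclei 1 h.

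Of 11 amino acid transporter genes 3 were higher and 1 lower after 2 h in mitochondria, at a median of 0.16, and 7 rose and 1 fell in nuclei, at 0.57, against 2 and 4, and 2 and 2, on the deposited scale. Slc3a2, the heavy chain shared by several exchangers, rose by 0.88 ± 0.08 and 1.19 ± 0.08, Slc1a4 by 0.78 ± 0.09 and 1.02 ± 0.09, and Slc7a1 by 0.35 ± 0.09 and 0.70 ± 0.09. Slc38a2, a carrier of small neutral amino acids that ATF4 is also known to induce, fell by 0.52 ± 0.08 and 0.39 ± 0.08, and on the deposited scale by 0.89 and 0.84. At 1 h 4 of the 11 fell in mitochondria and none rose, while 1 rose and 1 fell in nuclei. The 4 became 2 without any 1 of the mitochondrial libraries of 0 and 1 h. The call of lower level in nuclei at 2 h was lost without replicate 1 of nuclei 0 h or either replicate of nuclei 2 h. Of 20 cytosolic aminoacyl-tRNA synthetase genes 7 rose in each fraction at 2 h, at medians of 0.13 and 0.20, whereas on the deposited scale none rose and 10 and 15 fell. The 7 in mitochondria became 3 without replicate 1 of 0 h and 2 without either replicate of 2 h, and the 7 in nuclei became 3 without replicate 2 of 0 h and 4 without replicate 1 of 2 h. Without the variance trend and robust moderation 1 and 3 rose. Aars rose by 0.45 ± 0.07 and 0.54 ± 0.07, Nars by 0.37 ± 0.07 and 0.34 ± 0.07, Cars by 0.32 ± 0.07 and 0.52 ± 0.07 and Wars by 0.32 ± 0.09 and 0.57 ± 0.09. As deposited, Cars stood at -0.07 and -0.06, Wars at -0.07 and -0.03 and Nars at 0.045 and -0.18, so that the direction turned with the scaling for all 3 in nuclei and for Cars and Wars in mitochondria. The promoter motif TGATGNAA lay in 5 of 13 synthetase genes, 3 of 12 synthesis enzymes and 2 of 7 transporters that the RefSeq table holds.

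XBP1 and ATF6 head the other arms of the response to misfolded protein in the endoplasmic reticulum. Of 21 of their target genes 14 fell over the 2 h in mitochondria and 1 rose, at a median of -0.35, and 6 fell and 1 rose in nuclei, at -0.13, while 17 fell and 1 rose in each on the deposited scale. Leaving out 1 library took the 14 to 9 without replicate 1 and 8 without replicate 2 of mitochondria 0 h, and to 7 and 8 without those of 2 h. It took the 6 in nuclei to 2 without any 1 nuclear library of 0 or 2 h and to 3 without either replicate of mitochondria 2 h. Without the variance trend and robust moderation 5 and 1 fell. Hspa5, the main chaperone there, fell by 0.28 in mitochondria and by 0.25 in nuclei. Syvn1 and Edem1, which serve the removal of misfolded proteins, fell by 0.64 ± 0.07 and 0.41 ± 0.11 in mitochondria and by 0.28 ± 0.07 and 0.39 ± 0.11 in nuclei, and the disulfide isomerase gene Pdia3 fell by 0.38 ± 0.06 and 0.37 ± 0.06. The gene that rose was Herpud1, of the same removal pathway, by 1.10 ± 0.09 and 1.36 ± 0.09. Its libraries stood at 4.01 and 3.94, 3.41 and 3.50, and 4.69 and 4.75 log2 RPM in mitochondria and at 4.16 and 4.01, 3.77 and 3.66, and 4.94 and 4.72 in nuclei. As deposited they were thus lowest at 1 h and highest at 2 h, but after normalization the 1 h difference was -0.18 in mitochondria and 0.33 in nuclei and passed in neither. Xbp1 itself stood at 0.01 and 0.17 at 2 h and did not pass. TGATGNAA lay in 1 of 19 promoters of this list, against 3.97% of all promoters.

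None of the 4 kinases that phosphorylate eIF2 rose over the 2 h, on either scale. Eif2ak3 (PERK) passed in neither fraction, at -0.63 in mitochondria and -0.26 in nuclei, Eif2ak4 (GCN2) fell by 0.46 in mitochondria and stood at -0.02 in nuclei, and Eif2ak1 and Eif2ak2 lay between -0.14 and 0.19. In the whole list of 16 genes of eIF2, its kinases, its phosphatase and the exchange factor eIF2B, mitochondria had 1 that rose and 2 that fell, and nuclei had 3 and 1. As deposited, none rose and 8 and 10 fell. With 1 library left out, mitochondria had 0 to 2 that rose and 0 to 3 that fell, and nuclei had 0 to 3 and 0 to 1. Eif2b2, a subunit of eIF2B, rose by 0.49 ± 0.10 and 0.47 ± 0.10 and turned with the scale in nuclei, where the deposited value was -0.12. Nck1, an adaptor that has been linked to the eIF2 phosphatase, fell by 0.59 ± 0.13 and 0.65 ± 0.13.

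Among 22 other bZIP genes related to the members 21 were tested, since Cebpe was not above the floor in 2 libraries. Over the 2 h 5 rose and 2 fell in mitochondria and 5 rose and 4 fell in nuclei, at medians of 0.05 and 0.06, while 1 rose in each and 11 and 12 fell on the deposited scale. The shares of all genes after normalization were 4.65% and 6.78% in mitochondria and 4.64% and 5.57% in nuclei. Nfil3 rose by 1.43 ± 0.14 and 1.31 ± 0.14, Creb5 by 0.78 ± 0.14 and 0.48 ± 0.14, with -0.10 for the latter in nuclei as deposited. Creb1 fell by 0.62 ± 0.12 and 0.88 ± 0.12, and Cebpd by 0.91 ± 0.24 and 1.44 ± 0.24. Cebpd is thus a C/EBP gene that went down while Cebpb stood higher, and its libraries went from 2.03 and 2.60 log2 RPM at 0 h to 0.90 and 1.21 at 2 h in mitochondria. Leaving out replicate 1 of mitochondria 0 h or either replicate of mitochondria 2 h took the 5 that rose in mitochondria to 2, and leaving out replicate 1 of nuclei 0 h or of nuclei 2 h took the 4 that fell in nuclei to 2. The 2 that fell in mitochondria became 1 without either replicate of mitochondria 0 h or replicate 1 of 2 h, and 0 without replicate 2 of 2 h. Of the 7 paralogs of the effector genes (Trib1, Trib2, Sesn1, Sesn3, Ddit4l, Chac2 and Ppp1r15b) 2 rose in mitochondria and 1 in nuclei at 1 h, Trib1 by 0.72 and 0.70 and Trib2 by 1.14 in mitochondria, and Ppp1r15b fell by 0.26 in mitochondria. The call of Trib1 in nuclei was lost as deposited, at -0.012, without either replicate of nuclei 0 h and without replicate 2 of nuclei 1 h, and that of Ppp1r15b without any 1 library other than replicate 1 of mitochondria 1 h. Between 1 and 2 h Trib1 fell by 1.11 and 0.94, and Trib2 by 1.09 in mitochondria, while Ppp1r15b rose by 0.34 and 0.36. At 2 h against 0 h none rose in either fraction, Sesn1 fell in mitochondria by 0.50, a call lost without any 1 of the libraries of 0 or 2 h of either fraction, and the others did not pass, Ddit4l among them at 1.16 ± 0.56 in mitochondria. As deposited, 4 of the 7 fell in each fraction.

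The last list holds other genes known as targets of ATF4 or CHOP. Of its 17 genes 8 rose over the 2 h in mitochondria and 1 fell, at a median of 0.49, and 9 rose in nuclei, at 0.66, against 7 and 3, and 5 and 5, on the deposited scale. Gadd45a, a growth arrest and DNA damage gene, rose by 2.10 ± 0.13 and 2.34 ± 0.13, Nupr1, a stress-induced chromatin protein, by 1.42 ± 0.11 and 1.64 ± 0.11, and Stc2, a secreted glycoprotein, by 0.91 ± 0.10 and 1.38 ± 0.10. Fgf21, a secreted stress hormone, had 0 and 6, 1 and 15, and 75 and 58 reads in mitochondria in order of time, and 9 and 8, 6 and 3, and 82 and 88 in nuclei. It passed at 2 h in both, though its fitted difference of 4.91 ± 1.06 in mitochondria depends on the value set for the library without a read. Tnfrsf10b, which codes for a death receptor and is a known target of CHOP, fell by 0.61 in mitochondria and did not pass in nuclei, at -0.18.

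**Figure D5:**
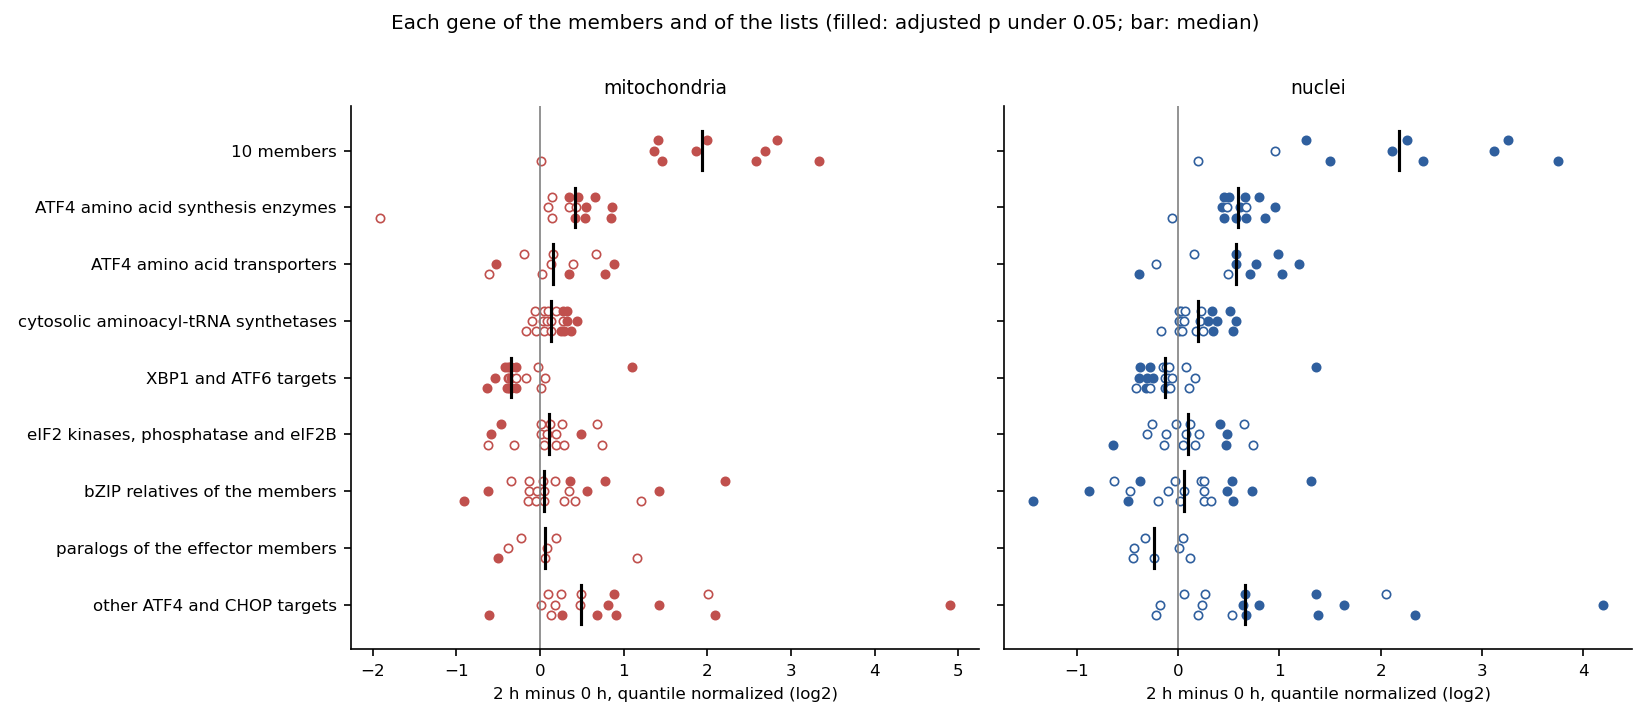
Log2 difference between 2 and 0 h after quantile normalization (horizontal axis) for the 10 members and for each gene of 8 lists, in mitochondria and nuclei. Filled points passed an adjusted p under 0.05, open points did not, and the bar is the median of the list, which is 0.42 and 0.59 for the synthesis enzymes and -0.35 and -0.13 for the XBP1 and ATF6 targets.

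The course shared by the members was also looked for among other genes, by Pearson r over the 6 group means with the mean standardised profile of the 10, among 699 genes of above-median level whose means span at least 1 log2 unit. The group means share the libraries, so r is given as a description. The 8 highest were Tsc22d3 (0.993), Trdmt1 (0.993), Zbtb21 (0.993), Slc30a1 (0.991), Rnd1 (0.990), Klf4 (0.987), Cep83os (0.986) and Ciart (0.986). The members themselves lay between 0.931 (Cebpb) and 0.996 (Chac1), apart from Atf5 at 0.405. They make up that profile and were chosen on their course, so nothing is read from their r, with it or with each other. Of the 8 other genes the zinc exporter gene Slc30a1 differed most between 2 and 0 h, by 2.55 ± 0.16 in mitochondria and 3.12 ± 0.16 in nuclei. The clock gene Ciart followed, by 2.35 ± 0.18 and 2.36 ± 0.18. Tsc22d3, a leucine zipper gene known as a target of glucocorticoids, differed by 1.68 ± 0.11 and 1.80 ± 0.11. Between pairs of members, Sesn2 and Ddit4 had an r of 0.998 over the same means, and Atf3 and Chac1 one of 0.997.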

How the data were processed

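Total RNA was depleted of ribosomal RNA and made into libraries with NEBNext Ultra II, per the labels' protocols. The submitters' processing notes name HISAT2, StringTie, edgeR, GRCm38 and mm10, without versions or roles. The authors deposited gene values in log2 RPM and transcript values in FPKM, of which 11 libraries were used here; nuclei 1 h replicate 1 was not used on that scale. Strand settings are not given in the sources used here, and whether replicates came from separate cultures is not stated, so p-values measure only the spread between these libraries.

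Taking each library's lowest log2 value as 0.9 read turned at least 99.997% of values into whole reads, within 0.05 read. After 52 repeated entries were left out, genes above that floor in at least 2 libraries were fitted with limma 3.58.1 in R 4.3.3, with quantile normalization, 1 mean per group, a variance trend, robust moderation and Benjamini-Hochberg adjustment, and the fit was tested on simulated data. Members, lists, motifs and rules for named genes were chosen with earlier results of these data known. From each list up to 4 genes were named, those with the largest change at 2 h among genes called the same way in both fractions. Hspa5, Xbp1, the eIF2 kinases, the named paralogs, Tnfrsf10b and the partners of overlapping genes were named after their values were seen. Alternatives were other scalings, filters, a pseudocount of 0.5 RPM, a split term, the 8 libraries alone, a replicate block and each library left out.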

Additional observations from a re-analysis of the deposited data

How the results depend on the processing

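Over the alternatives run, 1126 of 1260 values of members between times stayed within 1 standard error of the value given. Many of the 1260 could not move, or only barely. The other filters, the fit without the variance trend and the replicate block leave these values unchanged by design. Leaving out a library of a group outside the contrast changes them little. The count is thus no measure of robustness by itself. Of the 1260 values 16 changed sign, 9 of these as deposited (Atf5, Ddit4, Sesn2 and Cebpb, as given above). Among the values that had been called, only Sesn2 in nuclei at 1 h changed sign, to -0.092 as deposited. Of 630 values between fractions 573 kept direction and side of the threshold, 36 changed sign, 16 lost a call and 5 gained one. As deposited, the number of members called lower was 1 in mitochondria at 2 h, 1 in nuclei at 1 h and 1 in nuclei at 2 h, and 4 were called higher in nuclei at 1 h, beside 25.5%, 48.0%, 38.1% and 0.508% of all genes. In the 8 libraries alone 0 were called higher in mitochondria at 1 h, 0 in nuclei at 1 h and 0 between 1 and 2 h in each fraction; these fits have 1 library in 4 groups, whose spread is assumed to be that of the others. Between mitochondria and nuclei 1 was called higher as deposited and 1 with median centring, 0 were called lower with median centring and 0 in the 8 libraries, and 2 had a larger 1 h effect in mitochondria as deposited.

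The level between fractions changed sign for Atf3 to -0.072 as deposited and -0.17 in the 8 libraries, and with median centring for Atf4 to 0.058, Ddit4 to 0.13, Chac1 to 0.15 and Sesn2 to 0.026. The difference of the 1 h effect changed sign in the 8 libraries for Atf3 to 0.13 and Ddit4 to 0.072, with median centring for Atf4 to -0.0059 and Atf5 to -0.069, and as deposited for Ddit4 to 0.20, Chac1 to 0.028, Sesn2 to 0.014 and Ppp1r15a to 0.19. That of the 2 h effect changed sign as deposited for Atf3 to 0.054, Atf5 to 0.0023, Ddit4 to 0.13, Sesn2 to 0.035 and Ppp1r15a to 0.065, and in the 8 libraries for Atf3 to 0.24 and Ddit4 to 0.093. With 1 library left out, the level between fractions ranged from -0.13 to 0.18 for Atf3 and from -0.058 to 0.018 for Chac1. The 1 h effect then ranged from -0.14 to 0.18 for Atf5, from -0.40 to 0.12 for Ddit4 and from -0.10 to 0.83 for Cebpb, and the 2 h effect from -0.87 to 0.061 for Atf3, from -0.38 to 0.13 for Ddit4 and from -0.0069 to 0.93 for Cebpb. The cause was not tested.

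The labels number the replicates, but do not state that the numbers pair the samples. Of 15 pairs of groups 3 had a correlation of their replicate deviations above 0.1 and 3 below -0.1, from -0.74 to 0.74 over 10539 genes. All of these lie among the 0 and 1 h groups, which hold the 4 libraries set apart above. Those below -0.1 all involve mitochondria 0 h, where that library is replicate 2. They follow that split, and among these groups the split and a pairing of cultures cannot be told apart. Pairs with a 2 h group lay between -0.0022 and 0.049, so no pairing by number was seen there. With the replicate block all 90 member values were the same as without it, at a largest shift of 0. This was fixed by the design, since each group holds 1 library of each replicate number, and only standard errors and calls could change. With the block the members called higher numbered 6, 9 and 8 in mitochondria at 1 h, at 2 h and between them. In nuclei they numbered 7, 9 and 8, where 8 were called at 2 h without the block. Read numbers limit Cebpb and Atf3 most.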
